A study of Mus musculus with 6 samples.

Results

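Antiviral restriction factors are cell proteins that block single steps of a viral life cycle, and 10 of their genes were chosen by symbol: Ifitm2, Ifitm3 and Ifitm6 (entry), Rsad2, Cmpk2 and Samhd1 (nucleotides), Mx1 and Mx2 (viral ribonucleoproteins), Apobec3 (viral DNA) and Bst2 (budding). Of these, 9 were found among the 22063 genes of the deposited table, and Mx2 was not analysed here. The 6 samples were mouse macrophages in a pair of groups, CAR-Ms (n = 3) and CAR-Trem2-Ms (n = 3), labelled as skin and grown for 7 days with the growth factor M-CSF at 20 ng/mL. All were transduced by lentivirus with a chimeric antigen receptor (CAR), an engineered receptor that gives a macrophage a target to bind, so the controls had met a viral vector too. CAR-Ms carry the genotype WT in the labels and CAR-Trem2-Ms the genotype TERM2+, spelled so. The labels of CAR-Trem2-Ms add VD3 at 1 µM for 24 h and sorting by flow cytometry; a protocol text that all 6 samples share also names VD3, and the labels do not settle whether it was given to CAR-Ms. The Trem2 label and the sort, and possibly VD3, therefore differ together between the groups, and their parts cannot be told apart. No strain, age or number of animals was given. No label says that replicates came from separate cultures, so p-values speak of the spread among these 6 samples alone, which may be technical.

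Most of these genes are switched on by interferons, through transcription factors that bind a DNA element called the interferon-stimulated response element. IFITM proteins sit in endosomal membranes and hinder the fusion of enveloped viruses. Viperin, the product of Rsad2, turns CTP into a nucleotide that stops viral polymerases, CMPK2 is a mitochondrial kinase of pyrimidine nucleotides, and SAMHD1 cleaves the deoxynucleotides that reverse transcription needs. MX1 is a dynamin-like GTPase that acts on viral ribonucleoproteins, APOBEC3 is a cytidine deaminase that enters retroviral particles, and BST2, also called tetherin, holds budding particles to the cell surface.

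The libraries of CAR-Ms held 14.2 to 15.91 (in 1e6 reads), those of CAR-Trem2-Ms 9.8 to 12.56. Trem2, the gene behind the label, rose from 76.6 ± 2.31 to 191.2 ± 7.56 counts per 1e6 reads with TMM factors (CPM; SD, n = 3 each). The macrophage genes Csf1r, Cd68 and Lyz2 averaged 1264, 638.9 and 1315 CPM in CAR-Ms, against 862.1, 601.5 and 1776 in the other group, while Mrc1 and Mertk stayed below 1 CPM in each group. Transcripts of the mitochondrial genome took 4.6 to 4.7% of counts in CAR-Ms, against 13.4 to 13.8% in CAR-Trem2-Ms. In bulk RNA, a change in the number of cells of a type and a change in RNA per cell cannot be told apart. Markers of other cells also differed between the groups, and their part in the results below was not tested. The 10 T cell and NK cell markers summed to 1.08 to 1.51 CPM in CAR-Ms, against 5.72 to 10.7 in CAR-Trem2-Ms, with Ncr1 and Klrb1c at 0 throughout. Of 4 tested, 3 were called higher, but all 4 had under 10 reads in a CAR-Ms sample, so this count supports nothing. The 10 neutrophil markers summed to 19.6 to 35.9 and 3.50 to 7.65 CPM. Of 6 tested, 5 were called lower, but 4 of the 6 had under 10 reads in a CAR-Trem2-Ms sample, so this count supports little. The 6 B cell markers summed to more, 81.3 to 108.0 CPM in CAR-Ms, against 114.8 to 119.0 in CAR-Trem2-Ms. Of these, 1 was called higher and 5 lower, and again 4 of the 6 had under 10 reads in a CAR-Trem2-Ms sample. Endothelial, erythroid and fibroblast markers summed to at most 6.54, 13.8 and 5.63 CPM in any sample.

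All 6 members with at least 10 reads in every sample were higher in CAR-Trem2-Ms with TMM factors, but of these Samhd1 was lower, and Ifitm2 and Apobec3 were not called, on the log2(TPM + 1) scale. TPM is the authors' measure per transcript length. The background was large: edgeR's quasi-likelihood test called 81.1% of 11402 tested genes at a Benjamini-Hochberg adjusted p under 0.05, 40.9% of tested genes being higher in CAR-Trem2-Ms and 40.1% lower, and 41.3% were higher among the 10471 genes with at least 10 reads in all samples. A rise by itself was therefore common. Rsad2, Cmpk2 and Mx1, with 1 to 9 reads per CAR-Ms sample, were tested only because they were high in CAR-Trem2-Ms; they had to differ, and a count that includes them supports nothing. In each of the 9 genes every CAR-Trem2-Ms sample read above every CAR-Ms sample in CPM, as in 41.1% of tested genes; in 40.7% every sample read below, which makes 81.8% whose groups did not overlap. Ordered by fold change, the members ran from Samhd1 at 1.25-fold and Apobec3 at 1.61-fold to Ifitm6 at 7.28-fold and Rsad2 at 17.4-fold.

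**Figure D1:**
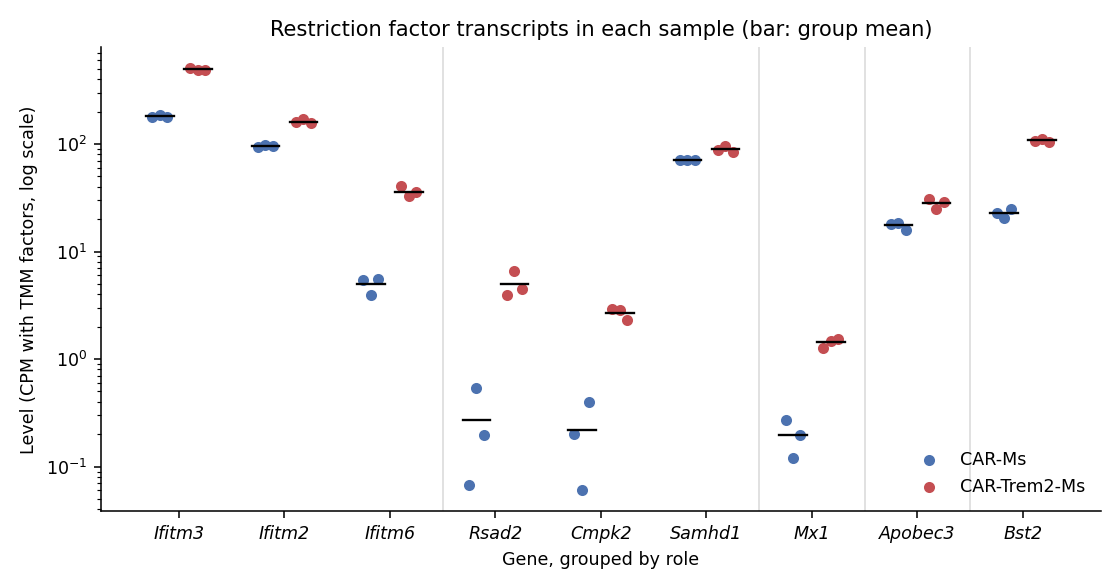
Levels of the 9 listed genes in each sample (y axis, CPM with TMM factors, log scale; x axis, genes grouped by role). Points are samples and bars are group means of 3; CAR-Trem2-Ms lie above CAR-Ms for every gene, by the least for Samhd1 (71.1 to 89.3 CPM) and with single-digit reads in CAR-Ms for Rsad2, Cmpk2 and Mx1.

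The promoters of the members were read on both strands, in 300 bases from 250 before to 50 after the start site (RefSeq, GRCm38.p6). The core of the interferon-stimulated response element, GAAA, any 2 bases and GAAA again, was sought. It was found in 3.44% of 32851 promoters and in 5 of the 9 promoters of the 8 members with an entry: Bst2, Ifitm2, Ifitm3, Rsad2 and Apobec3. Mx1 and Mx2 had no entry. Most members are genes that interferons switch on, so these shares are a description and no test. The 250 bases before the start site are shown for Bst2, Rsad2 and Ifitm2, and for Cmpk2, the neighbour of Rsad2, in which these letters were not found; capitals mark the element, which reads TTTC, any 2 bases and TTTC where it lies on the other strand.
Bst2, chr8:71537473-71537722, minus strand: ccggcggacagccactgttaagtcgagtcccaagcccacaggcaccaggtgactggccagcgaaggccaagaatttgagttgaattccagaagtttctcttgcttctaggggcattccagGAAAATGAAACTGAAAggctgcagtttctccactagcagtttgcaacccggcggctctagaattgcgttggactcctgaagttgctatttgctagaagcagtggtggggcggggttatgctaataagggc
Rsad2, chr12:26456453-26456702, minus strand: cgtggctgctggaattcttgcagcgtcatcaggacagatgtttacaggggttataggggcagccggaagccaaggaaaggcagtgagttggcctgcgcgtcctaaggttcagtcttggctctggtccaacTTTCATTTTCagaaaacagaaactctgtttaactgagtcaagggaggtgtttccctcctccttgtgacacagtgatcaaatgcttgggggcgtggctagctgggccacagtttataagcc
Cmpk2, chr12:26468965-26469214, plus strand: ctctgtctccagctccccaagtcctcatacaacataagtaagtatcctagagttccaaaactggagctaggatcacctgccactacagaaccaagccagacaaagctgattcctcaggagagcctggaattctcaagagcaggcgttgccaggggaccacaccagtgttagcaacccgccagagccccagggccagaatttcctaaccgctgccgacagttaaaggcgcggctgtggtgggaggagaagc
Ifitm2, chr7:140955962-140956211, minus strand: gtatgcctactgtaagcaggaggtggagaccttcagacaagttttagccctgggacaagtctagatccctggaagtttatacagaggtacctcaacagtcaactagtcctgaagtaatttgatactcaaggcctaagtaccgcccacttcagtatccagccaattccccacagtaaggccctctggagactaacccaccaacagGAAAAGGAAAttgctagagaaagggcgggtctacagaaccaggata

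Bst2 held a pair of overlapping copies, which begin at positions -130 and -124 from the start site and share their middle GAAA. In Ifitm3 both copies lay past the start site, 2 and 19 bases after it. Apobec3 has a pair of start sites in the table, and only the upstream one held the element. The letters were not found in the windows of Cmpk2, Ifitm6 and Samhd1. The interferon-gamma activated site, TTCNNNGAA, which reads the same on both strands, was found in 8.3% of all promoters and in those of Bst2, Ifitm3, Ifitm6 and Samhd1; in Bst2 and in Ifitm3 its last letters overlap a copy of the element. A match is a description of letters and not evidence of binding. With TMM factors, the members with the element changed by 17.4-fold (Rsad2), 4.74-fold (Bst2), 2.74-fold (Ifitm3), 1.69-fold (Ifitm2) and 1.61-fold (Apobec3), and those without it by 12-fold (Cmpk2), 7.28-fold (Ifitm6) and 1.25-fold (Samhd1). The folds of Rsad2 and Cmpk2 had to be high for these genes to be tested, so they add nothing to this comparison.

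The entry factors come from 1 cluster on chromosome 7 (GENCODE M21, GRCm38). Ifitm3 (ENSMUSG00000025492, chr7:141009586-141010770, minus strand), the member of the family best known for blocking influenza virus, stood at 179.2, 184.1 and 177.7 CPM in replicates 1, 2 and 3 of CAR-Ms. It read 503.9, 489.8 and 488.3 CPM in CAR-Trem2-Ms. The samples of each group lay close together and the groups were far apart. The rise was 2.74-fold, or 1.45 ± 0.03 on the log2 scale (SE; edgeR, adjusted p = 5.6e-26).

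Ifitm2 (ENSMUSG00000060591, chr7:140954837-140955987, minus strand), a close relative that also acts in endosomes, read 93.3, 97.5 and 95.7 CPM in CAR-Ms. In CAR-Trem2-Ms it read 159.4, 169.1 and 156.7 CPM. The groups were apart in CPM, a rise of 0.76 ± 0.04 (log2, SE; edgeR, adjusted p = 2.8e-15), but not in TPM, where they overlapped at 424.8 to 452.8 and 436.0 to 470.2. On log2(TPM + 1) the change was 0.018 (limma-trend, adjusted p = 0.689).

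Ifitm6 (ENSMUSG00000059108, chr7:141015699-141017924, minus strand), a family member of myeloid cells, was low in CAR-Ms at 5.39, 3.98 and 5.60 CPM. In CAR-Trem2-Ms it read 40.4, 32.5 and 35.5 CPM. The lowest CAR-Trem2-Ms sample was well above the highest CAR-Ms sample. The rise of 2.86 ± 0.14 (log2, SE; edgeR, adjusted p = 4.3e-17) was the largest of the 3 Ifitm genes.

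Unequal rises changed the make-up of the Ifitm pool, which does not depend on how libraries are scaled. Of the summed TPM of Ifitm2, Ifitm3 and Ifitm6, Ifitm3 made up 62.1 to 63.0% in CAR-Ms, against 69.6 to 70.6% in CAR-Trem2-Ms. Ifitm2 made up 35.1 to 35.9% and 23.8 to 25.7%, so its share was smaller in every CAR-Trem2-Ms sample. Ifitm6 made up 1.42 to 1.98% and 4.75 to 5.83%. The ratio of Ifitm3 to Ifitm2 in TPM was 1.79, 1.76 and 1.73 in CAR-Ms, against 2.96, 2.71 and 2.92 in CAR-Trem2-Ms, a difference of 0.70 on the log2 scale. For each of 8 within-library ratios computed the groups did not overlap, and the two-sided exact permutation test gave p = 0.1, the smallest that 3 against 3 samples allow, and 0.1 after Benjamini-Hochberg adjustment. Reads from stretches that genes share cannot be assigned by sequence alone: of the 50-base words in Ifitm2 transcripts, 48.5% also occur in transcripts of another gene, mostly of Gm45717, which overlaps 40.9% of the Ifitm2 exons on the same strand and had 3 reads over all samples. Ifitm2 and Ifitm3 share 20 such words, Ifitm3 and Ifitm1 share 15, and in Ifitm6 none was shared, so the value of Ifitm2 is the least certain of these.

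**Figure D2:**
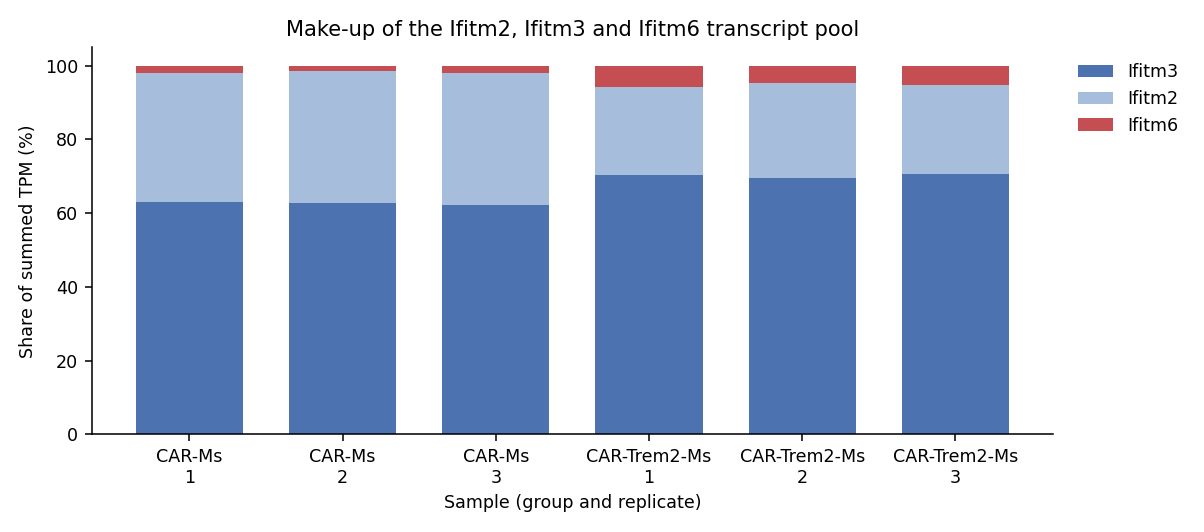
Share of the summed TPM of Ifitm2, Ifitm3 and Ifitm6 (y axis, %) in each of the 6 samples (x axis). The Ifitm2 part is 35.1 to 35.9% in CAR-Ms, against 23.8 to 25.7% in CAR-Trem2-Ms, and the Ifitm6 part is larger in every CAR-Trem2-Ms sample.

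Other genes of this cluster were near 0. Ifitm1, which lies between Ifitm2 and Ifitm3, had 3, 6 and 7 reads in CAR-Ms, against 1, 4 and 0 in CAR-Trem2-Ms. Ifitm5, on the other side of Ifitm2, stood at 0.18 ± 0.20 and 0.95 ± 0.48 CPM. Neither had enough reads to be tested. Of 15 genes fixed as palmitoyltransferases and other proteins that modify or turn over IFITM proteins, 3 rose and 8 fell (median -0.35 on the log2 scale, beside 0.03 over all tested genes). Zdhhc1, a palmitoyltransferase, rose by 1.85, while Zdhhc5, another, and Zmpste24, a protease, fell by 1.81 and 1.58. On log2(TPM + 1), 1 of 14 was higher and 11 lower. On that scale 17.5% of all tested genes were higher and 64.2% lower, which is the background for the lists below too.

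Among the nucleotide factors, Rsad2 (ENSMUSG00000020641, chr12:26442746-26456452, minus strand) was covered by 1, 9 and 3 reads in CAR-Ms, against 47, 62 and 53 in CAR-Trem2-Ms. In CPM these were 0.067, 0.54 and 0.20 against 3.93, 6.59 and 4.52. The lowest CAR-Trem2-Ms sample was above the highest CAR-Ms sample, and CAR-Ms replicate 2 held most of the reads of its group. The rise was 4.12 ± 0.48 (log2, SE; edgeR, adjusted p = 7.2e-09), and 5.11 without CAR-Ms replicate 2. Rsad2 was tested only because it was high in CAR-Trem2-Ms, so this p-value supports nothing. CAR-Trem2-Ms replicate 2, the highest for Rsad2, was also the highest for the summed T cell and NK cell markers, at 10.7 CPM. In CPM, Cmpk2 was highest in replicate 1 (2.93, beside 2.87 in replicate 2) and Mx1 in replicate 3 (1.54, beside 1.49 in replicate 2). In TPM, Mx1 was highest in replicate 2, at 0.90. A link with these markers was not tested.

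Cmpk2 (ENSMUSG00000020638, chr12:26469204-26479837, plus strand) starts 12752 bases from Rsad2, with which it is paired head to head. It had 3, 1 and 6 reads in CAR-Ms, against 35, 27 and 27 in CAR-Trem2-Ms, which is 0.20, 0.060 and 0.40 against 2.93, 2.87 and 2.30 CPM. As for Rsad2, the groups did not overlap and CAR-Ms samples rested on few reads. The rise was 3.59 ± 0.53 (log2, SE; edgeR, adjusted p = 6.2e-07), and 4.29 without CAR-Ms replicate 3. Like Rsad2, Cmpk2 was tested only because it was high in CAR-Trem2-Ms, and its p-value supports nothing. Sox11 and Rnf144a, the next coding genes outside the pair, stood below 1 CPM in each group. Of 24 genes of iron-sulfur cluster assembly, on which viperin depends, 15 rose and 6 fell (median 0.43), led by the assembly factors Isca2, Nfu1 and Hscb at 1.90, 1.63 and 1.43; on log2(TPM + 1) 7 were higher and 13 lower.

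Samhd1 (ENSMUSG00000027639, chr2:157097533-157135265, minus strand) had the smallest fold change of the members with TMM factors, though not on log2(TPM + 1). It read 70.9, 71.6 and 70.7 CPM in CAR-Ms, against 88.0, 95.1 and 84.7 CPM in CAR-Trem2-Ms. With TMM factors it rose by 0.33 ± 0.06 (log2, SE; edgeR, adjusted p = 6.4e-06), but in TPM it stood at 47.8 to 48.5 in CAR-Ms, against 30.2 to 33.9 in CAR-Trem2-Ms, and its change on log2(TPM + 1) was -0.59 (limma-trend, adjusted p = 3.6e-05). Its direction thus turned with the scale. Ranked by TPM within each library, which no scaling alters, Samhd1 stood at places 3327 to 3358 in CAR-Ms, against 2851 to 3178 in CAR-Trem2-Ms, where a lower place is a higher level.

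Genes that supply or break down deoxynucleotides, the substrate of SAMHD1, fell more often than they rose with TMM factors. Of 35 tested, 22 fell, 7 rose and 6 did not pass (median -0.67). On log2(TPM + 1) 30 fell and 2 rose, but there 64.2% of all tested genes were lower and 17.5% higher. Rrm1 and Rrm2, the subunits of ribonucleotide reductase, went from 288.4 ± 5.02 to 80.8 ± 5.48 CPM and from 155.1 ± 2.98 to 58.4 ± 2.54 CPM (SD, n = 3 each); both were named for their pairing with Samhd1 after their values were seen. The genes of mitochondrial nucleoside salvage, Dguok and Tk2, rose by 2.44 and 1.88. In TPM, the ratio of Samhd1 to Rrm1 was 0.389, 0.389 and 0.371 in CAR-Ms, against 1.12, 1.3 and 1.52 in CAR-Trem2-Ms, so that Samhd1 was the lower of the pair in CAR-Ms and the higher in CAR-Trem2-Ms. The ratio of Samhd1 to Rrm2 was 0.349, 0.357 and 0.341 against 1.11, 1.16 and 0.990.

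Mx1 (ENSMUSG00000000386, chr16:97447035-97462907, minus strand) was covered by 4, 2 and 3 reads in CAR-Ms, against 15, 14 and 18 in CAR-Trem2-Ms. In CPM these were 0.27, 0.12 and 0.20 against 1.25, 1.49 and 1.54. The groups were apart at a level near that of the T cell genes Trac and Cd8a, which read 0.11 and 0.06 CPM in CAR-Ms, against 1.29 and 1.77 CPM in CAR-Trem2-Ms. Whether the Mx1 reads have to do with T cells was not tested. The rise of Mx1 was 2.82 ± 0.60 (log2, SE; edgeR, adjusted p = 1.1e-04). Mx1 too was tested only because it was high in CAR-Trem2-Ms, and its p-value supports nothing. Mx1 and Mx2 share 159 of the 4115 50-base words of Mx1, and many inbred laboratory strains carry a defective Mx1. Fam3b and Bace2, the coding neighbours of Mx1, stood below 0.1 CPM in each group.

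Apobec3 (ENSMUSG00000009585, chr15:79891659-79915906, plus strand) stood at 17.9, 18.5 and 16 CPM in CAR-Ms. In CAR-Trem2-Ms it read 30.8, 24.8 and 28.7 CPM. The groups did not overlap in CPM and overlapped in TPM, at 15.8 to 18.1 and 14.1 to 18.5. The rise with TMM factors was 0.69 ± 0.11 (log2, SE; edgeR, adjusted p = 2.4e-06), against -0.038 on log2(TPM + 1) (limma-trend, adjusted p = 0.762). An exon of Cbx7, on the opposite strand, overlaps 100 bases of Apobec3, and nothing states that reads were counted by strand. Apobec1, its relative that edits the Apob transcript, rose by 1.05, from 106.5 to 220.4 CPM, and by 0.33 on log2(TPM + 1).

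Bst2 (ENSMUSG00000046718, chr8:71534255-71537456, minus strand), the budding factor, read 23.0, 20.4 and 24.8 CPM in CAR-Ms. In CAR-Trem2-Ms it read 107.7, 110.9 and 104.7 CPM. The groups lay far apart and the samples within each close together. The rise was 4.74-fold, or 2.24 ± 0.07 (log2, SE; edgeR, adjusted p = 1.2e-21), and none of its 50-base words occurs in another gene's transcripts. Bst2 is also a marker of plasmacytoid dendritic cells, whose genes Siglech, Ccr9 and Klk1 were at or under 0.11 CPM in each group; of the 2 tested markers of these cells, Cox6a2 rose from 1.93 to 57.4 CPM and Tcf4 fell from 119.3 to 66.7 CPM, and with these opposite changes the list summed to 121.4 to 122.8 CPM in CAR-Ms, against 115.9 to 134.5 CPM in CAR-Trem2-Ms. Mvb12a, which lies 5466 bases from Bst2 and encodes a subunit of the ESCRT complex that viruses use to bud, rose by 0.95 ± 0.08 (log2, SE). Of 31 ESCRT genes, 15 rose and 10 fell (median 0.25), with Chmp4b and Cc2d1a at 1.35 and 1.33 and Nedd4l at -2.09; on log2(TPM + 1) 6 of 29 were higher and 22 lower.

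Per transcript length, the order of the members changed below the top 3. In CAR-Ms it ran, in mean TPM, from Ifitm3 (778.9), Ifitm2 (441.9), Bst2 (73.9) and Samhd1 (48.1) to Ifitm6 (22) and Apobec3 (17.1). In CAR-Trem2-Ms Ifitm6 (96.0) stood between Bst2 (212.0) and Samhd1 (31.6). Neighbours in that order did not overlap between samples, except Ifitm6 and Apobec3 in CAR-Ms, where the lowest Ifitm6 sample (18.05) lay below the highest Apobec3 sample (18.06). Mx1, Rsad2 and Cmpk2 came last at 0.21, 0.12 and 0.11 TPM in CAR-Ms, with overlapping samples, and at 0.66, 1.31 and 0.87 in CAR-Trem2-Ms, where the lowest Rsad2 sample (0.96) lay just above the highest Cmpk2 sample (0.94) and Cmpk2 overlapped Mx1. Within libraries, Bst2 took places 1977 to 2449 among all genes by TPM in CAR-Ms, against 374 to 403 in CAR-Trem2-Ms. Ifitm6 took places 5491 to 6430 and 795 to 1020, and Ifitm3 places 160 to 168 and 107 to 108, so each of these stood higher in every CAR-Trem2-Ms library.

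The scale turned the sign of Samhd1 and of Apobec3, whose change in TPM was not called, and set the size for the others. Over all tested genes the median log2 fold change was 0.03 with TMM factors (4668 genes called higher, 4577 lower), 0.26 with upper quartile factors (5714 and 3606 genes), -0.10 with scaling to total counts (4154 and 5096 genes) and -0.63 on log2(TPM + 1) (1890 higher, 6946 lower, 17.5% and 64.2% of those tested). The members moved with the median. Relative to the median gene of its own scale, the log2 change of Bst2 was 2.22 with TMM factors and 2.22 in the ratio of mean TPM, that of Ifitm6 2.83 and 2.82, that of Ifitm3 1.42 and 1.41, and that of Ifitm2 0.73 and 0.72. Apobec3 gave 0.66 on both. Samhd1 gave 0.30 and 0.09, close to the median gene in TPM. The fold change of Samhd1 exceeded that of 61.1% of tested genes, those of Apobec3 and Ifitm2 73.5% and 75.4%, and those of Bst2 and Ifitm6 96.0% and 97.9%.

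**Figure D3:**
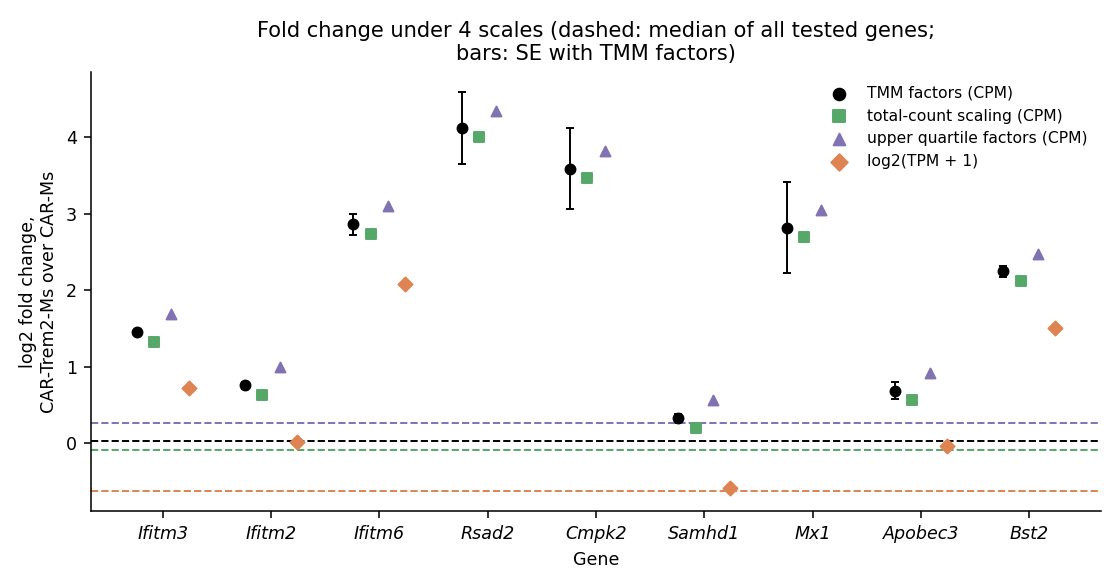
Log2 fold change of each gene (y axis, CAR-Trem2-Ms over CAR-Ms) under 4 scales; bars are the SE with TMM factors and dashed lines the median of all tested genes on each scale. Samhd1 lies above 0 with TMM factors (0.33) and below 0 on log2(TPM + 1) (-0.59), near that scale's median of -0.63; Rsad2, Cmpk2 and Mx1 were too low to be tested in TPM.

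In the pathway that induces these genes, ligands were hardly detected. Of 10 transcription factors, 9 rose and 1 fell (median 1.22); on log2(TPM + 1) 6 were higher and 2 lower. Irf7, the master regulator of interferon genes, rose by 4.92 ± 0.12 (log2, SE), from 2.36 ± 0.18 to 72 ± 4.76 CPM. Stat2 rose by 2.54 ± 0.09, and Irf9, named after its value was seen, by 1.45. Stat3, which serves other cytokines, fell by 1.62. Ifnb1 had 1 read in 1 CAR-Trem2-Ms sample, Ifna2, Ifna4 and Ifne had none, and Ifng had 0 in each CAR-Ms sample and 6, 3 and 1 in CAR-Trem2-Ms. Of 7 tested receptors and kinases, 2 rose and 2 fell: Tyk2 by 1.33, and Jak1 and Ifngr1 by -1.5 and -0.86; on log2(TPM + 1) 1 was higher and 5 lower. Among 9 inhibitors and feedback genes, 7 rose and 1 fell (median 0.45), led by Usp18 at 5.19 and Isg15 at 4.12, with Ptpn6 at 1.11; on log2(TPM + 1) 3 were higher and 5 lower.

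Of 40 other restriction factors tested with TMM factors, 30 rose, 18 of them by at least 2-fold (18.7% of all tested genes did), 5 fell and 5 were not called; the median was 0.66, beside 0.03 for all tested genes. Among those that averaged 50 or more reads in CAR-Trem2-Ms, Rtp4, an interferon-induced chaperone, Dhx58, a relative of the RNA sensor RIG-I, and Slfn5, a Schlafen protein, led at 6.03, 4.03 and 3.47. On log2(TPM + 1) 17 of 37 were higher and 16 lower, with a median of -0.05. Among relatives of the members by sequence family, 4 of 10 tested rose and 4 fell: Dnm2 and Dnm1, dynamins related to Mx1, rose by 1.33 and 1.29, and Ak4, a nucleotide kinase, fell by 2.31. On log2(TPM + 1) 4 of these genes were higher and 6 lower.

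**Figure D4:**
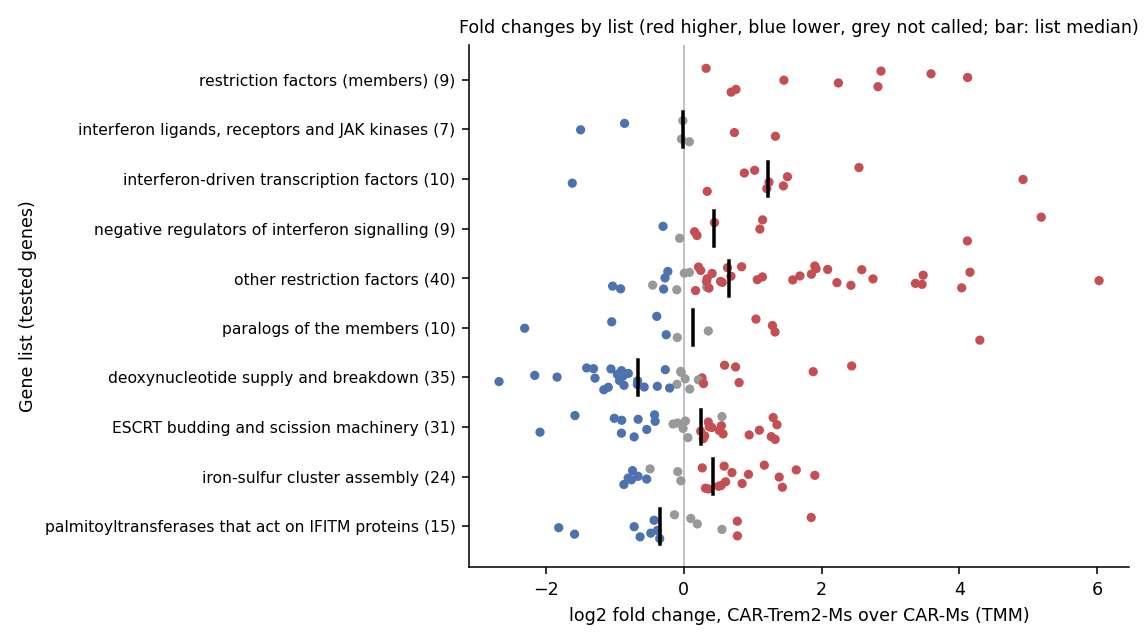
Log2 fold change of every tested gene (x axis, TMM factors) in the members and 9 related lists (y axis, number of tested genes in parentheses). Red points were called higher, blue lower and grey not called, and black bars are list medians, left out for the members since 3 of them passed the read filter only through CAR-Trem2-Ms; the list of deoxynucleotide supply has its median at -0.67.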

How the data were processed

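The authors deposited 1 table with raw read counts and TPM per gene for the 6 samples, plus their own log2 fold change, p-value and adjusted p, per the file headers. The deposited log2 fold change was found to compare mean TPM between the groups. The submitters' processing notes list StringTie 1.3.1, HISAT2, Bowtie2 2.2.8 and fastp 0.18.0, with the build mm10. No tool for the p-value or the counting, no annotation release and no strand setting is given in the sources used here.

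Counts were tested with edgeR 4.0.16 (quasi-likelihood, TMM factors, filterByExpr, 11402 genes, Benjamini-Hochberg over all), after a check on simulated data. In the simulated data few genes changed, evenly up and down, so that check does not cover a background as large as the present one. SE is the log2 fold change divided by the square root of F. TPM was tested with limma 3.58.1 (limma-trend, log2(TPM + 1), TPM 1 or more in at least 3 samples), which understates the change of low genes. Replicate pairs differed by 2.19 to 3.34 times sampling noise (chi-square per degree of freedom), so no pair looked like 1 library deposited again; this does not show separate cultures. Of the identifiers, 21973 were found in GENCODE M21. PCR copies are not separate molecules.

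The text names all members, up to 3 called genes of each related list averaging 50 or more reads in whichever group was higher and the largest change, and the 5 genes of most similar profile; others are marked where they appear or are neighbours on the genome, markers or paralogs. Members and lists were chosen with earlier results of these data known. Some genes that the rule for named genes would give are not reported here.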

Additional observations from a re-analysis of the deposited data

How the results depend on the processing

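With RLE, upper quartile or total-count scaling, no filter or a stricter filter on low counts, DESeq2 1.42.0, limma-voom, the replicate block, mitochondrially encoded genes left out, each sample left out and an adjusted p under 0.01, 9 members were called higher and 0 lower, while of all genes 4154 (total-count) to 5714 (upper quartile) were called higher; the 9 include Rsad2, Cmpk2 and Mx1, which had to differ. With a log2 fold change of at least 1 as a further condition, 6 members were called higher, and 2136 of all genes higher and 1629 lower. On log2(TPM + 1) in limma-trend, 6 members could be tested, of which 3 were called higher and 1 lower; of all genes 1890 were called higher and 6946 lower. On that scale Samhd1 stood at -0.59 and Apobec3 at -0.038, both reversed, and Ifitm2 at 0.018 was no longer called. Leaving out each sample, the log2 change of Rsad2 ran from 3.68 to 5.11, of Cmpk2 from 3.12 to 4.29, of Mx1 from 2.55 to 3.09 and of Samhd1 from 0.28 to 0.36. The replicate numbers did not pair the samples (correlations of deviations of 0.028, -0.027 and 0.032 for the same number); with the replicate block 4627 genes were called higher and 4561 lower. With 9 to 13 reads per group in CAR-Ms, the folds of Rsad2, Cmpk2 and Mx1 are the least precise.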

Other observations

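The authors' deposited table pairs a log2 ratio of mean TPM with an adjusted p from a test that is not named. It lists Ifitm2 at 0.02 with an adjusted p of 5.8e-52, Apobec3 at -0.03 with 4.1e-08 and Samhd1 at -0.60 with 1.9e-06. In the authors' deposited table Bst2 stands at 1.52, Ifitm6 at 2.12 and Rsad2 at 3.49.

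The 5 tested genes whose centred log2 CPM profile over the 6 samples lay nearest to the mean profile of the 9 tested members were Nisch, Ptprs, Fcgr1, Imp3 and Trib3, at a root mean square difference of 0.04 to 0.05 (log2). The members themselves lay at 0.17 (Bst2) to 1.06 (Rsad2) from that mean. Fcgr1, a high-affinity Fc receptor of macrophages, rose by 1.88. The mean profile includes Rsad2, Cmpk2 and Mx1, which were tested only because they were high in CAR-Trem2-Ms, so its size rests in part on genes that had to differ, and the 5 genes are a description only.

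The coding genes next to the members moved in both directions. Rbl1, a relative of the retinoblastoma protein that lies 10628 bases from Samhd1, went from 89.8 ± 1.10 to 46.9 ± 3.99 CPM, and Tldc2, on the other side of Samhd1 at 1051 bases, had no read. Pdgfb, 79968 bases from Apobec3, rose by 2.59 and Cbx6, on its other side, by 0.63. Ccdc194, next to Bst2, went from 0.43 ± 0.15 to 1.40 ± 0.37 CPM.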
